A study of Mus musculus with 2 samples.

Results

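Histones carry acetyl and methyl groups that are written and erased by a large set of enzymes, and 65 genes of that set were described here in skeletal muscle, out of 55536 genes in the deposited gene tables. They were taken by symbol: the Hdac, Sirt1 to Sirt7, Kat, Kdm, Kmt2 and Kmt5, Setd, Smyd1 to Smyd5 and Ezh genes with at least 1 protein-coding transcript, leaving out the Y-linked Kdm5d. A further 5 symbols fitted the pattern but had no protein-coding transcript (Kat2b-ps, Kat6b-ps1, Kat6b-ps2, Kdm4dl and Kdm6bos) and were not counted. The rule itself uses names only and no measured value, but it was set with earlier results of these data known.

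The study sequenced total RNA from the calf muscle gastrocnemius. The mice were females of the strain B6CASTF1/J, 2 months old, a first-generation cross of B6 and CAST backgrounds. It holds 2 libraries, each from 300 ng of RNA with ERCC spike-in RNA added, labelled as biological replicates 1 and 2 and called animal 1 and animal 2 here. Both carry the same donor record, and the labels do not say whether that record stands for a strain or a single mouse. There is 1 group and so no treated against control contrast. A comparison of 2 libraries has no replicate check, and no p-value is given.

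Acetyltransferases (KATs) place acetyl groups on histone lysines, which loosens chromatin and recruits readers, and histone deacetylases (HDACs) and the NAD-dependent sirtuins remove them. Lysine methyltransferases (KMT, SETD, SMYD, EZH) and demethylases (KDM) set methyl marks that go with active or silent genes according to the lysine modified. In striated muscle the family is known for class IIa deacetylases that bind the transcription factor MEF2 and leave the nucleus on calcium signals, and for Smyd1, a methyltransferase required to build the sarcomere. Several members act mainly on other proteins: Setd3 methylates actin, Hdac6 deacetylates tubulin, and Sirt3, Sirt4 and Sirt5 work in mitochondria.

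The gene tables held 45231388 expected counts in animal 1 and 47956841 in animal 2. All 12 markers of muscle fibre were detected, at a summed 68184 and 64955 TPM (a level scaled to transcript length and to a fixed sum per library). The 5 lymphocyte markers summed to 0.1 and 0.09 TPM, and none was detected. The animals differed in other markers: 8 slow fibre genes summed to 873 and 3624 TPM in animals 1 and 2, 8 adipocyte genes to 776 and 101 TPM, and 8 Schwann cell and myelin genes to 249.99 and 33.7 TPM. Tenocyte markers summed to 63.0 and 134 TPM, fibroblast markers to 987 and 706 TPM, and macrophage markers to 51.5 and 32.3 TPM. The 6 fibroblast markers did not move together, and 1 was past 2-fold. Gsn had 492 and 279 TPM and Col3a1 had 126 and 58.5 TPM, and Pdgfra and Lum were also lower in animal 2. Dcn (178 and 180 TPM) and Col1a1 (168 and 173 TPM) were not. In bulk tissue, fewer cells of a type and less RNA per cell cannot be told apart.

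Nearly the whole family was present. At least 1 TPM in both animals was reached by 63 of the 65 members (96.9%), against 10240 of 22028 protein-coding genes (46.5%). The median member stood at 8.33 TPM, close to the 7.75 TPM of detected protein-coding genes, so the family as a whole was broadly rather than highly expressed. Of the 63, 19 were at 10 TPM or more in the mean and 44 lay from 1 to under 10 TPM. All members together summed to 882 and 846 TPM in animals 1 and 2 (864 ± 25.4, SD, n = 2). The 5 highest members held 41.9% and 42.2% of that sum, and the first 10 held 57.4% in the mean. The order of members was nearly the same in both libraries (Spearman's rho across the 65 genes 0.988, a description, since genes are not independent replicates).

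**Figure D1:**
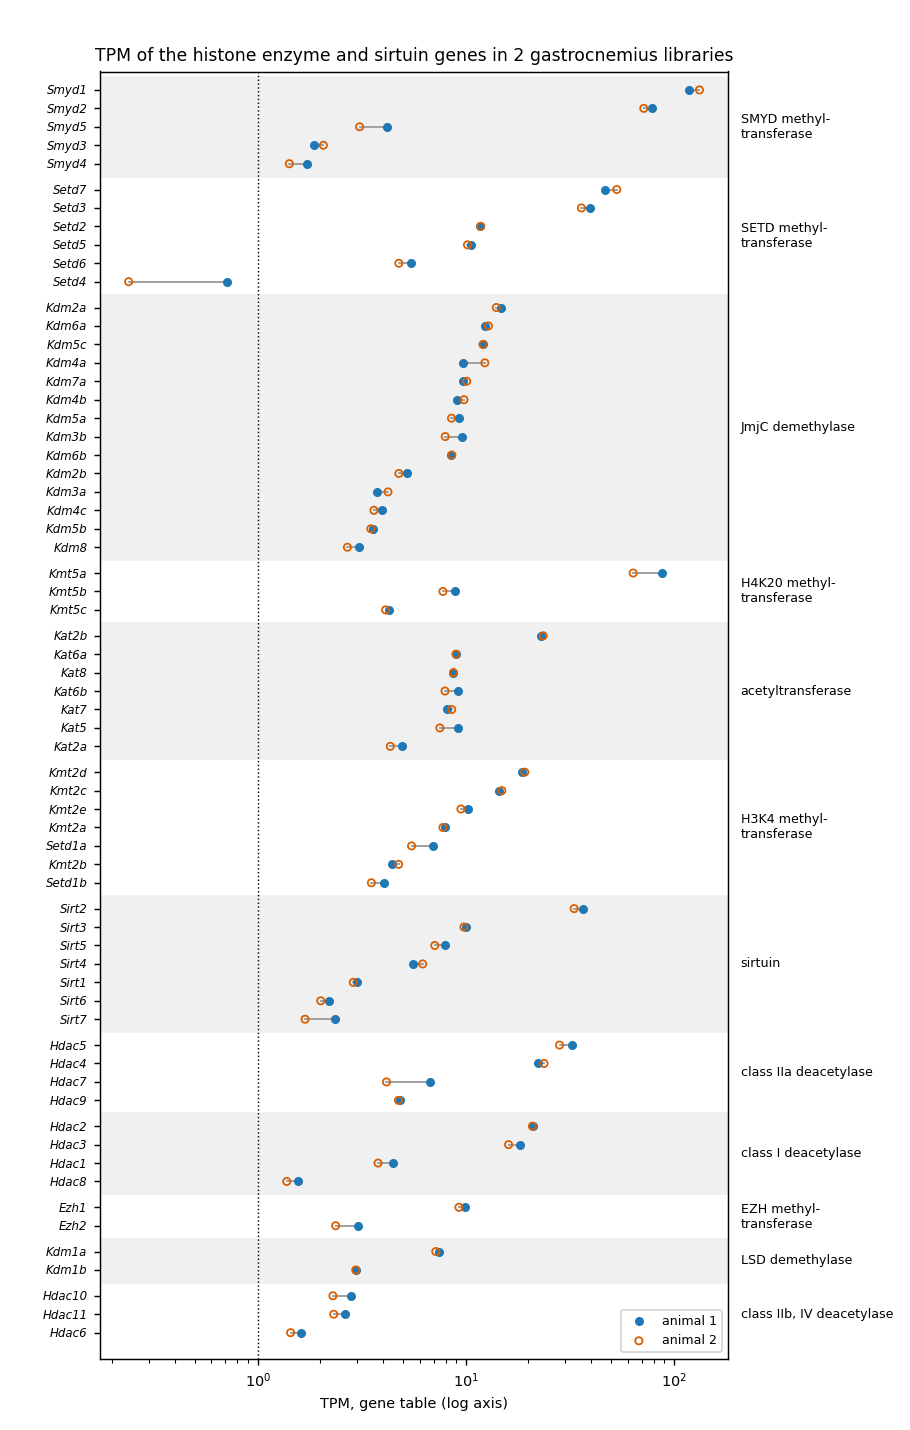
TPM of each member with reads in animal 1 (filled points) and animal 2 (open points) on a log axis, grouped by enzyme class in order of summed level; the dotted line marks 1 TPM. Kdm4d, at 0 in both, is not drawn. Smyd1, Kmt5a and Smyd2 lie at the right edge in both animals, and Setd4 is the one drawn member left of the dotted line.

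The SMYD genes held the largest share of the family's RNA, at 204 and 211 TPM in animals 1 and 2, or 24.0% of the members' sum. Nearly all of this came from a pair of genes. Smyd1, the muscle-restricted member, was the highest of all 65, at 118 and 133 TPM in animals 1 and 2, a level above that of 96.0% of detected protein-coding genes. Smyd2, which methylates histone and cytosolic proteins including the chaperone HSP90, had 78.2 and 71.7 TPM. The log2 ratio of Smyd1 to Smyd2 within a library was 0.59 and 0.89, so Smyd1 was the higher in both. The other members were far lower: Smyd5 had 4.17 and 3.09 TPM, Smyd3 had 1.86 and 2.07 TPM, and Smyd4 had 1.72 and 1.42 TPM.

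Smyd1 lies on the minus strand at chr6:71213940-71322233 (mm10). Its leading transcript, Smyd1-201, took 60.2% of the gene's TPM in animal 1 and 59.9% in animal 2, and all 6 of its annotated transcripts are protein-coding. The 250 bases before the start of that transcript are shown because their base composition set them apart from most members. They hold 2 CpG pairs. Among 39 member promoters that lie within 50 bases of a leading transcript's start (37 members), the median was 20 CpG, 2 promoters had only 2 CpG, and the next lowest had 6. The other one at 2 CpG was Hdac9, a class IIa deacetylase. Hdac4 of the same class and Kmt5a, the second-highest member, are given for contrast with 23 and 16 CpG. Capitals mark each CG, each stretch reads 5′ to 3′ along its gene and ends at the base before RefSeq's start, and the sequences are RefSeq's on GRCm38.p6. That start is the first base of the leading transcript for Smyd1, Hdac4 and Kmt5a and lies 15 bases from that of Hdac9-201. Smyd1 is chr6:71262282-71262531 (minus), Hdac9 chr12:34528890-34529139 (minus), Hdac4 chr1:92180342-92180591 (minus) and Kmt5a chr5:124439680-124439929 (plus).
Smyd1: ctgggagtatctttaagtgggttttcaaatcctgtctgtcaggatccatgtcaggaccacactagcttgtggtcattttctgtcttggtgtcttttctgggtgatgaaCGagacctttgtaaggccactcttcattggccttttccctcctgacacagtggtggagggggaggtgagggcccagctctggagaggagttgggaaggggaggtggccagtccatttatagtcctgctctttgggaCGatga
Hdac9: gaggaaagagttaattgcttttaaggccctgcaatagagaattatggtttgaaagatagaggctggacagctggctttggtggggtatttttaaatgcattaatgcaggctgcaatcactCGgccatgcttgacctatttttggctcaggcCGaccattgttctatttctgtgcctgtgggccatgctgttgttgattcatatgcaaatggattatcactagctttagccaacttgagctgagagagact
Hdac4: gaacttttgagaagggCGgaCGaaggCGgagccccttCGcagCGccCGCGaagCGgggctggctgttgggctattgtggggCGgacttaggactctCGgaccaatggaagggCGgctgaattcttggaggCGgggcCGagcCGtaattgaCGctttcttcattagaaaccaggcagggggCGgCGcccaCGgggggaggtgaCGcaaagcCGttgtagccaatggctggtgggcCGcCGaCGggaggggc
Kmt5a: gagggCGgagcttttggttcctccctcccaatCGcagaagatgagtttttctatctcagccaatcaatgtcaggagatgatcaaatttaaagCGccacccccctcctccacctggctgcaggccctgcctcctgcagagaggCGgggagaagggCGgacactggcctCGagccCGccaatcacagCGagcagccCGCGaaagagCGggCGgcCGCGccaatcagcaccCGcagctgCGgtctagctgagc

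Such CpG-poor stretches made up a smaller share in this family than in the whole RefSeq table. That table was not limited to genes detected in this muscle, so the gap cannot be read as particular to this family. Of all 32851 promoters, 29.0% held 2 CpG or fewer, against 6 of the 72 member promoters (8.33%), and the median over all was 6 CpG. The 72 promoters of the 52 members in the table had a median of 17 CpG, a count reached by 23.5% of all promoters. An observed over expected CpG ratio above 0.6 was found in 53 of the 72 (73.6%) and in 34.0% of all. The letters GGGCGG, the core of a GC box, occurred on either strand in 58.3% of member promoters and 32.7% of all, and CCAAT in 44.4% and 33.8%. TATAAA occurred in 4.17% and 12.4%, and the E-box CAGCTG, read by the MyoD family, in 13.9% and 13.0%. These are letter matches, not binding sites, and some members have several promoters that share bases or a gene.

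Among the SETD genes, Setd7 and Setd3 were the highest. Setd7, which places the first methyl group on lysine 4 of histone H3 and also methylates other proteins, had 46.6 and 53.2 TPM in animals 1 and 2. Setd3, the actin histidine methyltransferase, had 39.6 and 36.0 TPM. Their order was not settled: the log2 ratio of Setd7 to Setd3 was 0.24 and 0.56 in the gene table and averaged -0.38 in the second transcript table. Setd2, which trimethylates lysine 36 of H3 behind RNA polymerase II, had 11.7 and 11.8 TPM. Setd5 had 10.6 and 10.2 TPM and Setd6 had 5.44 and 4.77 TPM. Setd4 was under 1 TPM in both animals, at 0.71 TPM from 19 reads and 0.24 TPM from 13 reads.

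Kmt5a, the enzyme that monomethylates lysine 20 of histone H4, was the second-highest member. It had 87.4 and 63.7 TPM in animals 1 and 2, and it set both the level of its class (101 and 75.6 TPM) and the spread between animals (SD 17.6). In reads, the gap was smaller: 5495 expected counts in animal 1 and 4487 in animal 2, or 1.20-fold higher in animal 1 after scaling. TPM also depends on the transcript lengths that the table assigns, and it is scaled to a fixed sum per library. The log2 ratio of the counts, animal 2 over animal 1, was -0.27 after TMM scaling and -0.38 with library size alone. The part of lengths and of scaling in the gap was not tested. Its relatives Kmt5b and Kmt5c, which add the second and later methyl groups, were much lower. Kmt5b had 8.90 and 7.77 TPM and Kmt5c had 4.29 and 4.12 TPM, a log2 ratio of 1.04 and 0.90.

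The genes classed here by name as H3 lysine 4 methyltransferases had a class sum of 66.8 and 65.1 TPM in animals 1 and 2. The sum does not tell whether each of them has that activity. Their means ran from 3.78 TPM (Setd1b) to 19.0 TPM (Kmt2d). Kmt2d, an enhancer methyltransferase, led with 18.7 and 19.2 TPM, and its close relative Kmt2c had 14.4 and 14.9 TPM. Kmt2c stood below Kmt2d by nearly the same log2 ratio in both libraries, -0.37 and -0.36. Kmt2a, which maintains Hox gene expression, had 7.93 and 7.77 TPM, and Kmt2b had 4.42 and 4.76 TPM. Kmt2e, the most divergent member, had 10.3 and 9.48 TPM. Setd1a had 6.96 and 5.49 TPM and Setd1b had 4.04 and 3.52 TPM. The Setd1a count is less certain, since it shares exon bases with Gm49388 on the same strand and its posterior SD was 35.1 reads of 1016 in animal 1.

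Of the catalytic subunits of the Polycomb repressive complex 2, the one typical of resting cells predominated. Ezh1 had 9.91 and 9.27 TPM in animals 1 and 2. Ezh2, which is high in dividing cells, had 3.03 and 2.37 TPM. The log2 ratio of Ezh1 to Ezh2 was 1.68 and 1.92, a 3.48-fold mean, and 1.14 in the second transcript table. Of 4 proliferation markers, only Pcna was detected.

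Acetyltransferases were led by Kat2b, also called PCAF, a coactivator that works with MyoD. Kat2b had 23.1 and 23.5 TPM in animals 1 and 2. Its close relative Kat2a (GCN5) had 4.93 and 4.34 TPM, so Kat2b was 4.95-fold higher in the mean. Between the MYST members, the gene table gave no order beyond the spread. Kat6a had 9.02 and 8.97 TPM against 9.18 and 7.95 TPM for Kat6b. Protein-coding transcripts held 100% of the Kat6a TPM in each animal, but 53.3% and 55.1% of that of Kat6b. Kat5 (TIP60) had 9.15 and 7.51 TPM against 8.71 and 8.73 TPM for Kat8 (MOF), and the second transcript table placed Kat5 below Kat8, at a mean log2 ratio of -0.47 (SD 0.048, n = 2). Kat7 had 8.14 and 8.56 TPM. The class as a whole stood at 70.9 ± 1.85 TPM (SD, n = 2).

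Class I deacetylases, the nuclear corepressor enzymes, were unequal. Hdac2 had 21.1 and 20.9 TPM in animals 1 and 2, while Hdac1, with which it shares complexes, had 4.45 and 3.79 TPM. Hdac2 was thus 5.01-fold higher in the mean. Hdac3, the enzyme of the NCoR complex, had 18.3 and 16.1 TPM, and Hdac8 had 1.57 and 1.38 TPM, a log2 ratio of 3.46 and 3.45. Part of the Hdac1 reads could not be placed uniquely: the posterior SD of its count was 12.2 reads of 296 in animal 1.

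Class IIa deacetylases, the calcium-regulated partners of MEF2, summed to 66.0 and 60.9 TPM in animals 1 and 2, above class I at 45.4 and 42.1 TPM. Hdac5 had 32.4 and 28.2 TPM and Hdac4 had 22.1 and 23.8 TPM. Hdac7 had 6.72 and 4.16 TPM and Hdac9 had 4.82 and 4.75 TPM. By TPM over all transcripts, neither pair differed beyond its spread: the log2 ratio of Hdac5 to Hdac4 was 0.55 and 0.25, and that of Hdac7 to Hdac9 was 0.47 and -0.19. With protein-coding transcripts alone, Hdac4 and Hdac9 were the higher of their pairs in both animals. Counting protein-coding transcripts alone left 30.6 TPM for the class, below the 41.2 TPM of class I, and the second transcript table also placed class IIa lower (75.3 and 80.3 TPM). The order of these classes therefore depended on the transcripts and the table counted. The class IIb and IV genes were the lowest class, at 7.05 and 6.06 TPM in all. Hdac10 had 2.81 and 2.30 TPM, Hdac11 had 2.63 and 2.32 TPM, and the tubulin deacetylase Hdac6 had 1.61 and 1.44 TPM.

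The stretch before the leading Hdac5 start is shown because it holds a form of the MEF2 consensus. It was the only member promoter of the 72 (1.39%) with that form, against 167 of all 32851 (0.508%). The form starts with C, ends with G and has only A and T between them. Forms with another first or last base were not searched. The form searched is its own reverse complement, so both strands are covered. Its letters are in capitals, and the sequence is chr11:102230173-102230422, minus strand, from RefSeq on GRCm38.p6. It ends 6 bases from the annotated start of Hdac5-204.
Hdac5: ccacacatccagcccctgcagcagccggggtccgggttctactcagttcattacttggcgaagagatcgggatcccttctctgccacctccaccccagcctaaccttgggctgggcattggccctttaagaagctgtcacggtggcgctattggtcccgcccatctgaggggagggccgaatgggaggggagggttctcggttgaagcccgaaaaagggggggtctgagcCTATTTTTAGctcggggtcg

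Sirtuins were dominated by Sirt2, a mainly cytosolic deacetylase, with 36.6 and 33.2 TPM in animals 1 and 2, which was 53.4% of the class in the mean. Sirt1, the nuclear deacetylase of PGC-1alpha, had 2.99 and 2.88 TPM, so Sirt2 was 11.5-fold higher. The mitochondrial sirtuins lay between. Sirt3, the main mitochondrial deacetylase, had 10.02 and 9.80 TPM. Sirt5, which removes succinyl and related groups, had 7.97 and 7.10 TPM, and Sirt4 had 5.59 and 6.21 TPM. The order of Sirt3 and Sirt5 depended on the table: the log2 ratio was 0.33 and 0.46 here and averaged -0.19 in the second transcript table. The nuclear Sirt6 had 2.20 and 2.01 TPM against 2.35 and 1.69 TPM for Sirt7, a nucleolar enzyme, and their order differed between the animals. Sirt7 shares exon bases with Mafg on the same strand, a gene with 1982 and 2321 reads against 162 and 122 for Sirt7.

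The Jumonji-domain (JmjC) demethylases were the largest class by number, with 15 genes, of which 14 were detected. They summed to 115 TPM in both animals, and the highest of them, Kdm2a, held 12.5% of this. Kdm2a, an H3 lysine 36 demethylase that binds CpG islands, had 14.7 and 14.0 TPM against 5.24 and 4.77 TPM for Kdm2b. Kdm6a (UTX), an H3 lysine 27 demethylase on the X chromosome, had 12.3 and 12.8 TPM against 8.47 and 8.57 TPM for Kdm6b. Kdm5c, an X-linked H3 lysine 4 demethylase, had 12.1 TPM in each animal. Kdm5a had 9.33 and 8.54 TPM against 3.59 and 3.50 TPM for Kdm5b, both below Kdm5c. These orders are of TPM over all transcripts. Protein-coding transcripts held 68.9% and 63.1% of the TPM of Kdm6a but 100% and 93.0% of that of Kdm6b. For Kdm5a they held 44.3% and 39.6%, and for Kdm5b 83.9% and 92.3%.

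In the Kdm4 and Kdm3 pairs described, the first-named gene had the higher gene TPM in both libraries. Kdm4a, a demethylase of H3 lysines 9 and 36, had 9.68 and 12.3 TPM in animals 1 and 2 against 3.95 and 3.62 TPM for Kdm4c. Kdm3b had 9.54 and 7.97 TPM against 3.76 and 4.23 TPM for Kdm3a, an H3 lysine 9 demethylase. Kdm7a, Kdm4b and Kdm8 had no pair among these: Kdm7a stood at 9.74 and 10.1 TPM, Kdm4b at 9.05 and 9.80 TPM, and Kdm8 at 3.08 and 2.70 TPM. Kdm4b thus lay nearer to Kdm4a than Kdm4c did. Kdm4d was the only member with no read in either library. A count of 0 allows up to 3 counts, or 0.0348 and 0.0327 TPM in animals 1 and 2, for counting error only. Of the flavin-dependent demethylases, Kdm1a (LSD1) had 7.45 and 7.18 TPM and Kdm1b had 2.97 and 2.96 TPM.

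Across the 24 paralogue pairs, 18 had a mean log2 ratio beyond 2 SD of the 2 libraries with the same sign in both. The other 6 were Hdac5 and Hdac4, Hdac7 and Hdac9, Sirt6 and Sirt7, Kat6a and Kat6b, Kat5 and Kat8, and Setd7 and Setd3. With 2 libraries the SD rests on a single difference, so this is a description of spread and not a test. By the second transcript table, the number of such pairs was 19. With protein-coding transcripts alone, 3 of the 18 no longer passed. Of the other 6, 2 then passed with the same sign and 2 with the opposite sign, Hdac5 with Hdac4 and Hdac7 with Hdac9. Between the gene table and the second transcript table, the sign of the mean differed for 2 pairs, Sirt3 with Sirt5 and Setd7 with Setd3.

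**Figure D2:**
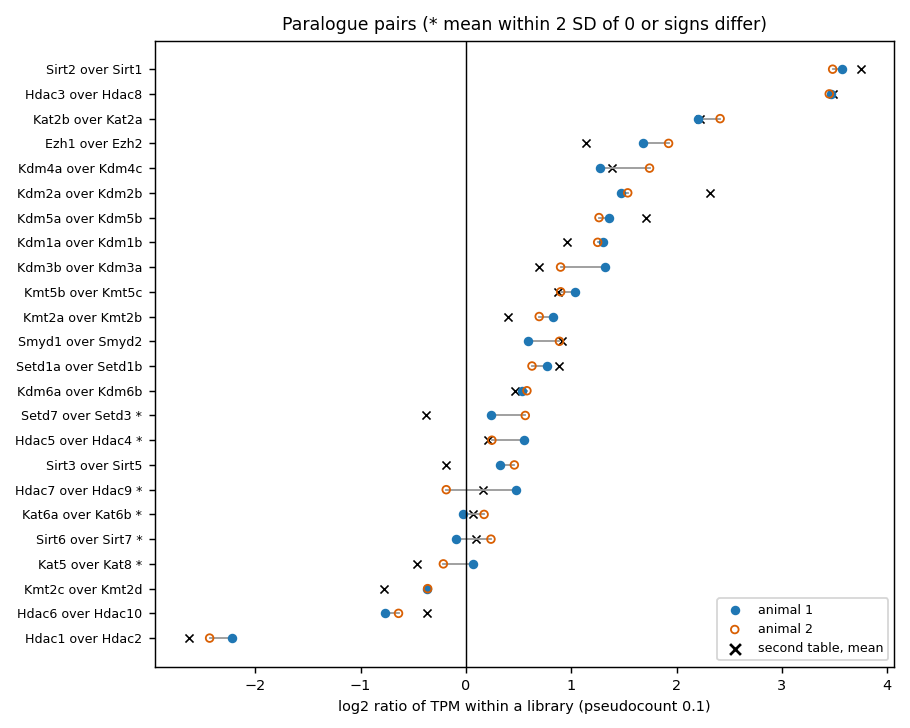
The log2 ratio of TPM within each library for 24 paralogue pairs, with animal 1 as filled points, animal 2 as open points and the mean of the second transcript table as crosses. Stars mark the 6 pairs within 2 SD of 0 or with unlike signs. Sirt2 over Sirt1 and Hdac3 over Hdac8 lie near 3.5, and Hdac1 over Hdac2 lies below -2 in both animals.

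Between the animals the family was nearly level. Of the 63 members at or above a mean count of 100, 0 were 2-fold or more higher in animal 2 and 0 were 2-fold or more higher in animal 1. Over all 10872 genes with such counts, 0.791% were past 2-fold in the first direction and 2.18% in the second, so a count of 0 among 63 is near that background. The median log2 ratio of animal 2 over animal 1 was 0.03 for the members and 0.02 for all genes, with 36 members above 0 and 27 below. That split followed the scaling: 57 and 6 with spike-ins, where the median of all genes was 0.22, and 16 and 47 with library size alone. A ratio under 1.25-fold, a limit chosen after the values were seen, held for 59 of the 63 members (93.7%) and for 79.7% of all genes. The members had more reads, with a median mean count of 1102.5 against 666.25 for all genes, and the spread of ratios narrowed with counts.

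The members furthest apart upward in animal 2 were Kdm4a, Hdac4, Smyd1 and Hdac9. Kdm4a had 1475 and 1986 counts in animals 1 and 2, a log2 ratio of 0.45 (95% counting interval 0.36 to 0.55). Hdac4 had 2394 and 3024 counts and a log2 ratio of 0.36 (0.28 to 0.44). For Smyd1 the counts were 13581 and 16669, with a log2 ratio of 0.32 (0.29 to 0.35), and for Hdac9 they were 591 and 679, with a log2 ratio of 0.22 (0.06 to 0.39). All 4 kept their sign under library size and spike-in scaling. These genes were higher in the library in which slow fibre markers were also higher (873 and 3624 TPM in sum, 8 of 8 past 2-fold). The part of that difference in these ratios was not tested.

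In the other direction stood Hdac7, Sirt7, Ezh2 and Kmt5a. Hdac7, a deacetylase known from endothelium, had 767 and 532 counts in animals 1 and 2, a log2 ratio of -0.50 (-0.67 to -0.34). Slc48a1, with 1307 and 1108 counts, overlaps its exons on the opposite strand, and no strand setting was given. Its share of TPM on protein-coding transcripts was 56.9% and 79.3%. The part of either in the Hdac7 ratio was not tested. The 6 endothelial markers summed to 74.4 and 64.0 TPM with a median log2 ratio of -0.18. Of these, named after their values were seen, Pecam1 was at -0.56, Emcn at -0.45 and Flt1 at 0.39, and their part in the Hdac7 ratio was not tested. Sirt7 had 162 and 122 counts, a log2 ratio of -0.38 (-0.74 to -0.04), which was -0.19 with spike-ins and -0.16 in the second transcript table. Ezh2 had 226 and 181 counts, a log2 ratio of -0.30 (-0.59 to -0.01), which was -0.097 with spike-ins. The ratio of Kmt5a was -0.27 (-0.33 to -0.21) and became -0.069 with spike-ins, and that of Hdac7 became -0.30. Adipocyte and Schwann cell markers were also higher in animal 1, and their part in these ratios was not tested. The intervals cover counting error only and not the difference between any 2 mice.

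**Figure D3:**
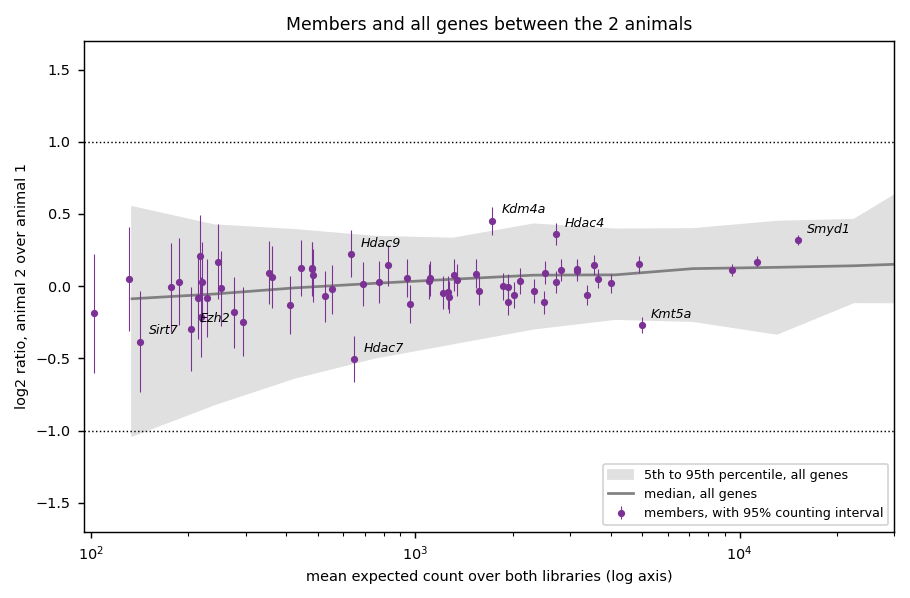
The log2 ratio of animal 2 over animal 1 against the mean expected count (log axis) for 63 members, with 95% counting intervals, over the 5th to 95th percentile (grey) and median (line) of all genes at or above a mean count of 100. Dotted lines mark 2-fold. No member reaches them, and the members run from -0.50 (Hdac7) to 0.45 (Kdm4a).

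The RNA was total RNA, so transcripts that keep an intron count toward a gene, as do processed transcripts and targets of nonsense-mediated decay. Over 41 members at 5 TPM or more, the median share of TPM on protein-coding transcripts was 87.7%, against 93.5% over 6574 protein-coding genes at that level. Under 50% were 5 of the 41 members (12.2%) and 7.41% of the 6574 genes. In the second transcript table they were 3 of 41 (7.32%) and 9.86%. The median coding share there was 82.8% for the members and 91.6% for the 6574 genes, so the lower median held in both tables and the larger share under 50% in the first alone. Retained-intron transcripts held a median 4.57% of TPM in the members and 1.54% in the 6574 genes, and 4.74% and 1.48% in the second table. The 5 members under 50% in the first table were Sirt4, Hdac5, Kdm5a, Setd6 and Hdac4. Retained introns held most of the non-coding TPM in Sirt4 and Hdac5, but 6.99% and 7.35% of the gene in Setd6, where processed transcripts held 46.7% and 40.8%. The 3 of the second table were Hdac5, Kdm5a and Setd5.

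Hdac5 was the most abundant of them, and both tables placed it under 50% in the mean. Its protein-coding share was 33.2% in animal 1 and 40.4% in animal 2, and retained-intron transcripts held 45.0% and 50.4%. The largest of these were Hdac5-217, with 20.1% and 22.1% of the gene, and Hdac5-211, with 15.4% and 14.5%. The second table gave Hdac5-211 0% and a coding share of 37.3% and 50.9%. Kdm5a, the H3 lysine 4 demethylase, had 41.9% coding and 8.36% retained-intron TPM in the first table and 27.2% coding in the second, in which the retained-intron transcript Kdm5a-205 led with 33.3%. Hdac4 had 50.3% and 49.3% in the first table, where processed transcripts held 42.5% and 39.3%, but 84.1% in the second. Sirt4 showed the widest gap, with 34.3% in the first table and 87.0% in the second.

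**Figure D4:**
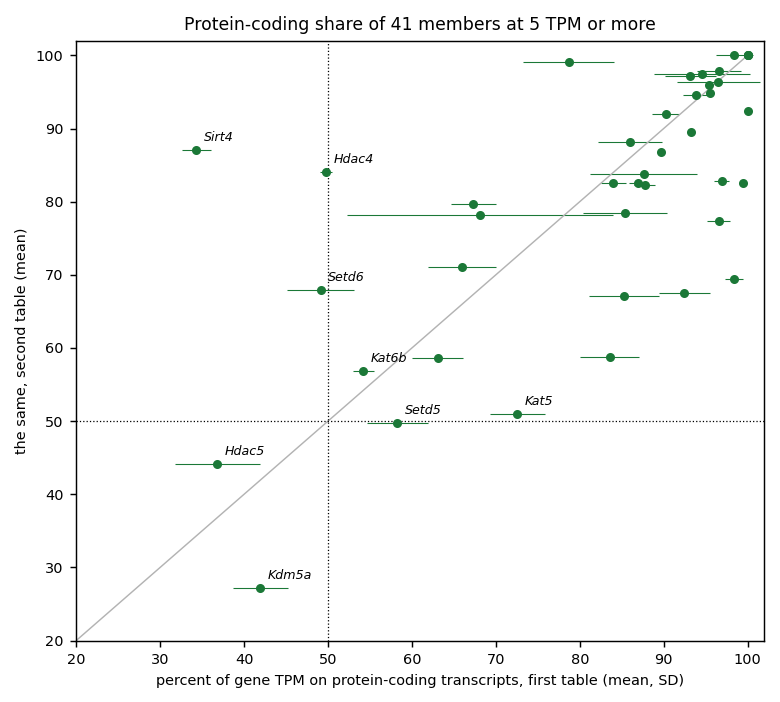
Percent of gene TPM on protein-coding transcripts for 41 members, first transcript table (mean with SD over 2 animals) against the second (mean), with dotted lines at 50%. Hdac5 and Kdm5a lie under 50% on both axes, Sirt4, Hdac4 and Setd6 on the first alone and Setd5 on the second alone.

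A protein-coding transcript led in 39 of the 41 members, and the same transcript led in both tables in 30. The exceptions to a coding leader were the retained-intron transcripts Sirt4-203, with 34.8% and 35.2% of the gene in the 2 animals, and Hdac7-211, with 21.1% and 13.0%. The second table gave them 9.02% and 5.73%. It also gave under 10% to 4 coding leaders of the first table. These were Sirt3-202 (68.5% in the first, 7.08% in the second), Ezh1-203 (45.1% and 6.70%), Kdm2b-201 (28.8% and 5.48%) and Kat5-202 (43.9% in the first, about none in the second). Isoform shares also moved between animals within a table: Sirt5-201 took 45.0% in animal 1 and 79.3% in animal 2, and Ezh1-203 took 57.8% and 32.5%.

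Most genes listed as partners or cofactor suppliers of these enzymes were detected, beside 46.5% of all protein-coding genes. Of 20 genes of the HDAC corepressor complexes described, 19 were detected, among them Ncor1, a scaffold that activates Hdac3 (48.4 and 47.8 TPM in animals 1 and 2), and Mbd3, a subunit of the NuRD complex (39.6 and 41.5 TPM). PRC2 partners were detected in 8 of 9, led by the histone-binding proteins Rbbp7 (31.9 and 32.7 TPM) and Rbbp4 (16.7 and 16.8 TPM). Rbbp7 and Rbbp4 are also counted among the corepressor genes. COMPASS partners, which assemble the H3 lysine 4 methyltransferases, were detected in 11 of 12, led by Dpy30 (17.8 and 16.2 TPM) and Hcfc1 (13.1 and 12.7 TPM). All 23 partners of acetyltransferase complexes were detected, with Msl1 at 21.9 and 24.9 TPM and Sgf29 at 14.3 and 12.2 TPM. With a mean count of 100 or more, 0 of 19 corepressor genes, 0 of 8 PRC2 partners and 0 of 23 acetyltransferase partners were past 2-fold between animals. Among COMPASS partners it was 1 of 12, Pagr1a, given with the cofactor genes. Over all genes with such counts, 0.791% were past 2-fold higher in animal 2 and 2.18% higher in animal 1. The counts of 0 are near that background.

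Enzymes of related function outside the symbol rule had medians of 8.72 TPM (acetyltransferases), 8.38 TPM (methyltransferases) and 10.2 TPM (demethylases and relatives), beside 8.33 TPM for the members. All 8 other acetyltransferases were detected, led by Crebbp (15.9 and 14.5 TPM) and Ep300 (15.7 and 14.2 TPM), the CBP and p300 coactivators. Of 17 other methyltransferases 16 were detected, led by the arginine methyltransferase Prmt1 (51.2 and 48.9 TPM) and by Nsd1 (20.7 and 20.3 TPM). All 8 other demethylases and relatives were detected, led by Hif1an (37.6 and 36.0 TPM), which hydroxylates asparagine in HIF1, and Hr (42.4 and 26.4 TPM). With a mean count of 100 or more, 0 of 8 acetyltransferases, 0 of 15 methyltransferases and 0 of 8 demethylases and relatives were past 2-fold. Over all genes with such counts, 0.791% were past it higher in animal 2 and 2.18% higher in animal 1. These counts of 0 are near that background.

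Among genes of cofactor supply with a mean count of 100 or more, 2 of 11 in NAD metabolism and 2 of 9 in acetyl-CoA and S-adenosylmethionine supply were past 2-fold, 1 in each direction in both lists, against 0.791% (higher in animal 2) and 2.18% (higher in animal 1) of all genes with such counts. In NAD metabolism, which feeds the sirtuins, 13 of 15 genes were detected, led by Nampt, the rate-limiting enzyme of NAD salvage, at 32.1 and 33.9 TPM, and Parp1 at 18.9 and 25.6 TPM. Nmrk2, the muscle nicotinamide riboside kinase, had 10.3 and 21.4 TPM in animals 1 and 2 (log2 ratio 1.17). Nnmt, which methylates nicotinamide and is high in fat, had 5.23 and 1.09 TPM (-2.21), in the direction of the adipocyte markers.

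In acetyl-CoA and S-adenosylmethionine supply, 10 of 11 genes were detected, led by the methionine adenosyltransferase genes Mat2a (44.7 and 46.6 TPM) and Mat2b (23.5 and 22.1 TPM). Acss1, the mitochondrial acetyl-CoA synthetase, had 6.64 and 13.9 TPM in animals 1 and 2 (log2 ratio 1.18). The citrate carrier Slc25a1 had 5.92 and 1.66 TPM (-1.83). Among COMPASS partners Pagr1a had 6.43 and 0.85 TPM (-3.95), from 196 and 11.9 expected counts with a posterior SD of 48.5 and 34.4 reads. Each of these is a difference between 2 libraries, and the part of the slow fibre and adipocyte markers in them was not tested.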

How the data were processed

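Gene and transcript levels in 2 total-RNA libraries of mouse gastrocnemius were taken from deposited tables of mm10 and GENCODE M21, per the deposited file lists. The aligner, the counting tools and a strand setting were not given in the sources used here. Expected counts and TPM, with posterior SDs of the counts, were deposited by the authors for genes and, in a first transcript table, for transcripts, there also with the percent of a gene's TPM on each. A second transcript table, made by the authors from reads, has estimated counts and TPM. The 26249 rows with no gene name held 4 and 5 reads (8.84e-06% and 1.04e-05%) and stayed out with the spike-ins (0.479% and 0.387%). Reads of the CAST genome were counted on mm10, a B6 genome.

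Symbols were matched to identifiers by the transcript table. TPM of a gene in the second table is the sum over its transcripts. Values are means ± SD over 2 libraries. Ratios between animals used rounded expected counts, TMM factors (edgeR 4.0.16) and a prior count of 0.5 over genes at or above a mean count of 100, with exact binomial 95% counting intervals. Paralogue ratios used log2(TPM + 0.1) within a library. Promoters are the 250 bases before each start in RefSeq's GRCm38.p6 table, where 52 of 65 members matched. Words were searched on both strands. The stretches printed overlap no annotated exon.

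Genes named were the 3 highest per class, all paired members, the 4 largest ratios in each direction, members under 1 TPM in both animals, the 2 highest and all 2-fold genes per partner list, and leading transcripts that are non-coding or under 10% in the second table. The remaining members and transcripts were named after their values were seen. The members, classes, pairs and lists were chosen with earlier results of these data known. In the methyltransferase list 1 gene did not match, and 1 gene of the corepressor list is not reported here. On counts simulated for the comparison of the animals over 55536 genes, 100% of 4-fold changes and 3.66% of unchanged genes were past 2-fold. The simulated spread (a common dispersion of 0.0516) was estimated from these 2 libraries as 1 group. It therefore includes any real difference between them, and 3.66% is not a measured error rate. Alternatives were DESeq2 1.42.0 size factors, library size, spike-ins, other filters, prior counts and pseudocounts, coding transcripts alone, the second table, and each library left out. Software was Python 3.11.15 (pandas 2.3.3, numpy 2.4.6, matplotlib 3.10.9, scipy 1.17.1) and R 4.3.3.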

Additional observations from a re-analysis of the deposited data

How the results depend on the processing

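The counts of members past 2-fold between animals stayed at 0 in each direction under every scaling, prior count, filter and table. Members at 1 TPM or more stayed at 63 except at a threshold of 5 TPM, which left 38. The median TPM of 8.33 became 11.5 in the second transcript table, 6.23 with protein-coding transcripts alone, and 7.77 to 8.14 with a library left out. With spike-in scaling the members had a median log2 ratio of 0.23 and all genes one of 0.22, and with library size these were -0.079 and -0.087. All 12 class sums were higher in the second table, at 320 TPM for SMYD, 181 for JmjC, 170 for SETD, 163 for H4K20, 103 for sirtuins, 97.6 for acetyltransferases, 95.9 for H3K4, 80.3 for class I, 75.3 for class IIa, 20.4 for EZH, 15.8 for LSD and 11.8 for class IIb and IV. With coding transcripts alone, 11 lay outside their spread, at 181 (SMYD), 95.9 (JmjC), 92.9 (SETD), 57.6 (sirtuins), 60.8 (acetyltransferases), 60.4 (H3K4), 41.2 (class I), 30.6 (class IIa), 10.4 (EZH), 9.26 (LSD) and 5.20 TPM (class IIb and IV). Leaving out either library gave 204 to 211 TPM for SMYD and 75.6 to 101 TPM for H4K20. The causes were not tested.

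The coding share of all members' TPM was 83.2% and became 81.2% in the second table. Paralogue pairs beyond 2 SD numbered 18 or 19 throughout, but these were not always the same pairs. With coding transcripts alone, 3 of the 18 no longer passed. Of the remaining pairs, 2 then passed with the same sign and 2 with the other sign. The ratio of Sirt3 to Sirt5 changed sign to -0.19 in the second table. With members at 1 TPM or more, 48 of 63 had the same leading transcript in both tables. No paired analysis was possible because there is 1 group. Counting limits low members most: Setd4 rests on 19 and 13 reads. No alternative uses strand, so exon overlaps on the opposite strand (23 members) were not separated.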
